A study of Mus musculus with 2 samples.

Results

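The genes described here make antibody and carry it across the gut wall. They are the 8 heavy-chain constant genes whose use sets the isotype of an antibody (Igha, Ighm, Ighd, Ighg1, Ighg2b, Ighg2c, Ighg3 and Ighe), the joining chain gene Jchain, and Pigr, the receptor that takes polymeric antibody through epithelium. They were taken by symbol from the deposited feature table, and all 10 were found among its 32285 genes. Single-cell RNA of mouse bowel and mesenteric adipose tissue was profiled in 1 library after colotomy, a cut into the colon, and in 1 library after a sham operation. Both libraries came from mice labelled B6/C57, aged 8 to 12 weeks, at postoperative day 14. Bowel and fat were digested apart, marked with hashtag antibodies and pooled into each library, and the labels do not give the number of mice. With 1 library in each group no difference has a replicate check, so values are given without p-values. Intervals are exact 95% intervals that cover counting error only.

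B cells begin with IgM and IgD on their surface, and class switching replaces the constant region with that of IgG, IgE or IgA. Plasma cells secrete the chosen isotype. In the gut most of them make IgA, which the J chain links into dimers, and Pigr on the basal side of epithelial cells binds the J chain-containing polymer and releases it into the lumen. IgG is made as a monomer and works largely through Fc receptors on myeloid cells.

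The isotype genes lie next to each other on the minus strand of chromosome 12, Jchain lies on the minus strand of chromosome 5 (chr5:88519809-88527891) and Pigr on the plus strand of chromosome 1 (chr1:130826684-130852249), in GRCm38 as GENCODE annotates it. What divides IgA and IgM from the other isotypes at the level of the J chain is the last stretch of the secreted heavy chain, the tailpiece, whose cysteine before the final residue bonds to the J chain. The last 51 coding bases and the stop codon of each secreted transcript are shown 5′ to 3′ on the coding strand, with the last 2 codons in capitals, because the cysteine codon TGC stands there in Igha and Ighm alone.
Igha, chr12:113258768-113258821: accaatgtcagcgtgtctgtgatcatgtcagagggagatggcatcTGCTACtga
Ighm, chr12:113420867-113420920: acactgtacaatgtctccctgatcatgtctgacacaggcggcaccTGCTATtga
Ighd, chr12:113409578-113409631: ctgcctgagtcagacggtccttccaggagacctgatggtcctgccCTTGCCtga
Ighg1, chr12:113328976-113329029: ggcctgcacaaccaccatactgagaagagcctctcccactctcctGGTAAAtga
Ighg2b, chr12:113306389-113306442: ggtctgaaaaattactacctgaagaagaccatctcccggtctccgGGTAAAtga
Ighg2c, chr12:113287389-113287442: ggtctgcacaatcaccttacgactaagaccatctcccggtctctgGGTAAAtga
Ighg3, chr12:113359665-113359718: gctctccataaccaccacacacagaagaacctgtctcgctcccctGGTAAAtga
Ighe, chr12:113271273-113271326: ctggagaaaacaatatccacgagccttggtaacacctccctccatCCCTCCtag

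The Igha and Ighm tails were identical at 35 of 54 bases, whereas the Igha and Ighg1 tails were identical at 13. The IgG genes were closer to each other, with 42 of 54 bases shared by Ighg1 and Ighg3 and 43 of 54 by Ighg2b and Ighg2c. Over whole transcripts, 2.64% of the 60-base words of Ighg2b, 3.16% of those of Ighg2c and 1.18% of those of Ighg3 occurred in another isotype gene. No 60-base word of the other 5 isotype genes and no 90-base word of any of the 8 did. A read from the shared stretches of Ighg2b, Ighg2c and Ighg3 could have been counted for the wrong gene.

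Barcodes were kept with at least 500 gene UMIs (unique molecules counted), at least 300 genes and under 20% mitochondrial UMIs. That left 9246 of 15547 barcodes in Colotomy with a median of 778.5 UMIs, and 42143 of 44814 barcodes in Sham with a median of 1328 UMIs. The libraries thus differed in depth, and 108 kept barcodes occurred in both. A barcode entered the plasma gate with at least 1 UMI of Mzb1 and Derl3 together and at least 3 of Jchain and Xbp1 together, which gave 427 cells in Colotomy (4.62% of kept barcodes, interval 4.20 to 5.07) and 1198 cells in Sham (2.84%, interval 2.69 to 3.01). Clusters made without any immunoglobulin gene and without the 10 genes put 244 of the 427 (57.1%) and 724 of the 1198 (60.4%) into a plasma cell-like cluster. The plasma gate also held RNA of other cells, and unequally. Fibroblast markers, all 10 of them detected, summed to 4805 CPM (UMIs scaled by all gene UMIs of the summed cells) in the gate of Colotomy and 1100 CPM in that of Sham. The 8 neutrophil markers, 1 of them at 0 in Sham, summed to 1938 CPM in Colotomy and 16.6 CPM in Sham, and the 10 B cell markers summed to 677 CPM in Colotomy and 2178 CPM in Sham. Their part in the results below was not tested, and isotype values are therefore also given for the plasma cell-like cluster.

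Plasma cells of the 2 libraries carried different isotypes. Each cell was assigned to the constant gene with most UMIs, with no correction for transcript length. IgA was assigned to 162 of 427 cells in Colotomy (37.9%, interval 33.3 to 42.7) and to 681 of 1198 in Sham (56.8%, interval 53.98 to 59.7). IgG1, a subclass that helper T cell responses with interleukin-4 favour in mice, was assigned to 134 cells in Colotomy (31.4%, interval 27.0 to 36.0) and to 49 in Sham (4.09%, interval 3.04 to 5.37). These are the widest gaps of the mix, and neither pair of intervals overlaps. The 4 IgG genes together made up 53.2% of plasma cells in Colotomy (227 cells, interval 48.3 to 58.0) and 22.2% in Sham (266 cells, interval 19.9 to 24.7), so IgG cells outnumbered IgA cells in Colotomy and IgA cells outnumbered IgG cells in Sham.

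Among the other isotypes the gaps were smaller. IgG2c, the subclass that interferon-gamma favours in C57BL/6 mice, took 8.90% in Colotomy (38 cells, interval 6.37 to 12.0) and 4.01% in Sham (48 cells, interval 2.97 to 5.28). IgG2b took 11.2% (48 cells) in Colotomy and 12.2% (146 cells) in Sham, and IgG3 took 1.64% (7 cells) in Colotomy and 1.92% (23 cells) in Sham. For both of these the intervals overlapped. Within IgG alone, IgG1 was 59.0% of the 227 IgG cells in Colotomy (interval 52.3 to 65.5) and 18.4% of the 266 in Sham (interval 13.9 to 23.6). The main subclass of Sham was IgG2b, at 54.9% of IgG cells there (interval 48.7 to 61.0) and 21.1% in Colotomy (interval 16.0 to 27.0).

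**Figure D1:**
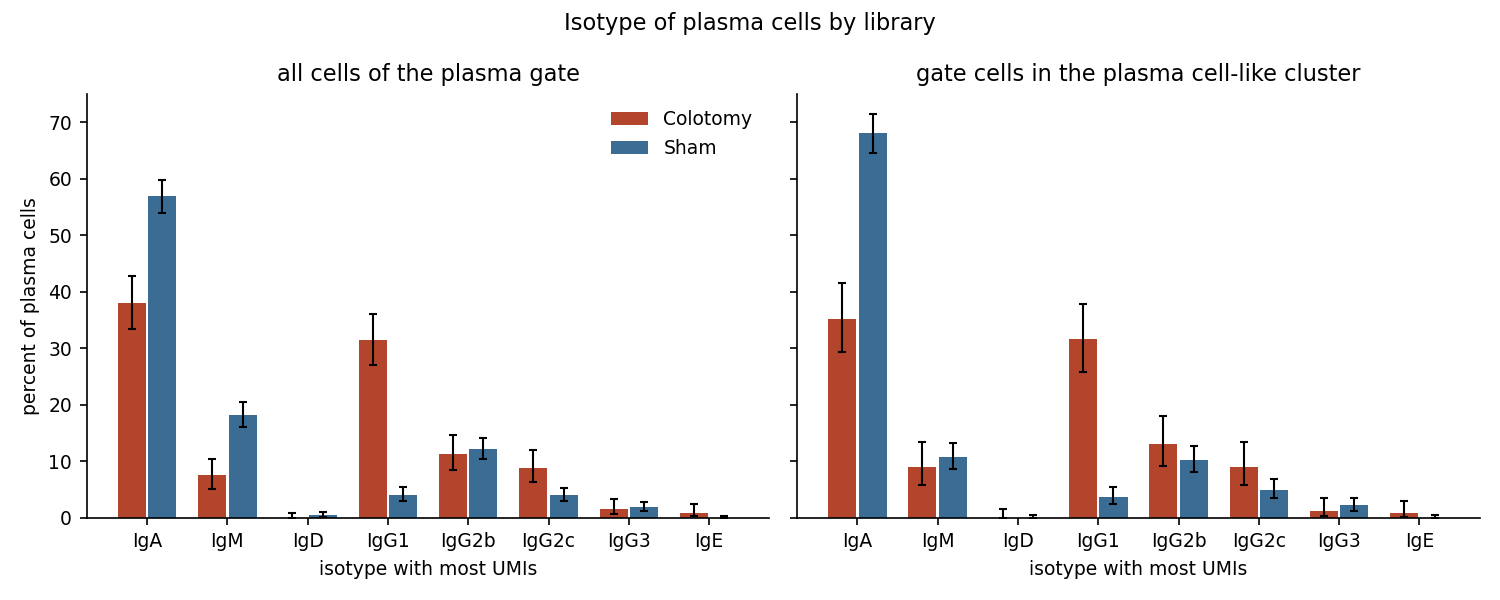
Percent of plasma cells assigned to each isotype in Colotomy (red, left of each pair) and Sham (blue, right), for all cells of the plasma gate and for the gate cells in the plasma cell-like cluster; bars are shares of cells and lines are exact 95% binomial intervals. IgG1 stands at 31.4% in Colotomy against 4.09% in Sham in the gate, and IgA at 37.9% in Colotomy against 56.8% in Sham.

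The IgA and IgG1 gaps were present in the plasma cell-like cluster too. There IgA was 35.2% of 244 cells in Colotomy and 68.1% of 724 in Sham, and IgG1 was 31.6% in Colotomy and 3.73% in Sham. IgG of any subclass was 54.9% of these cells in Colotomy (interval 48.4 to 61.3) and 21.1% in Sham (interval 18.2 to 24.3). IgM behaved differently. It was 7.49% of gate cells in Colotomy (32 cells, interval 5.18 to 10.4) and 18.2% in Sham (218 cells, interval 16.1 to 20.5), but 9.02% in Colotomy and 10.8% in Sham in the plasma cell-like cluster, where the intervals (5.74 to 13.3 in Colotomy, 8.61 to 13.3 in Sham) overlapped.

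Most assignments rested on many molecules. The constant genes gave a median of 105 UMIs per plasma cell in Colotomy and 193 in Sham, and the assigned isotype held a median share of 0.992 of them in Colotomy and 0.982 in Sham. An isotype with at least 3 UMIs and at least 75% of the constant UMIs was found in 97.0% of plasma cells in Colotomy (414 cells) and 85.6% in Sham (1025 cells). The largest group of weaker assignments was IgM cells of Sham: 0 of 32 IgM cells in Colotomy and 74 of 218 in Sham held fewer than 10 Ighm UMIs. Fewer than 10 Ighg1 UMIs were held by 1 of 134 IgG1 cells in Colotomy and 13 of 49 in Sham. Fewer than 10 Ighg2b UMIs were held by 0 of 48 IgG2b cells in Colotomy and 29 of 146 in Sham. T cell-like and fibroblast-like cells, which make no antibody, held 370 CPM of Ighm in Colotomy and 1196 CPM in Sham, and that level would give a cell of the gate's median depth 0.398 Ighm UMIs in Colotomy and 3.64 in Sham. The background of Ighm thus differed between the libraries, and with it subtracted the IgM share of Sham was 13.7%.

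Single cells of an isotype differed widely in how much of their own constant transcript they held. IgA cells held 4 to 847 Igha UMIs in Colotomy with a median of 150.5, and 1 to 2052 in Sham with a median of 263. IgG1 cells held 3 to 672 Ighg1 UMIs in Colotomy with a median of 98.5, and 2 to 1079 in Sham with a median of 96. Plasma cells had a median of 1075 UMIs of all genes in Colotomy and 3048 in Sham, so medians of IgG1 UMIs stood level despite the lower depth of Colotomy. For IgG2c the medians were 59 UMIs in Colotomy and 293.5 in Sham, and for IgG2b they were 79.5 in Colotomy and 148.5 in Sham. As a share of the cell's own UMIs, the medians were 13.7% in Colotomy and 9.40% in Sham for Igha in IgA cells, and 9.17% in Colotomy and 2.59% in Sham for Ighg1 in IgG1 cells. The IgG1 cells of Sham include the 13 of 49 with fewer than 10 Ighg1 UMIs.

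IgE and IgD marked few cells. Ighe, the constant gene of the isotype that arms mast cells, was the leading isotype in 4 plasma cells of Colotomy (0.937%, interval 0.256 to 2.38) and in 0 of 1198 in Sham, which at 3 counts of the total allows a share of up to 0.250%. The 4 cells held 22, 24, 115 and 6 Ighe UMIs beside 6, 11, 19 and 14 Jchain UMIs and 48, 50, 181 and 122 UMIs of the kappa light chain gene Igkc. Of these 4, 2 lay in the plasma cell-like cluster, 1 in an unnamed cluster and 1 in a fibroblast-like cluster. All kept barcodes of Colotomy held 197 Ighe UMIs in 21 cells, and those of Sham 37 UMIs in 30 cells with at most 5 in 1 cell. Ighd led in 0 plasma cells of Colotomy, which by the same rule allows a share of up to 0.703%, and in 5 of Sham (0.417%), none of them in the plasma cell-like cluster and none with more than 4 Ighd UMIs.

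Summed over all plasma cells, 4 of the 10 genes were at least 1.5-fold higher in Colotomy, beside 20.9% of the 11959 genes measured there, and 1 was at least 1.5-fold lower, beside 23.5%. Ighg1 stood at 31425 CPM in Colotomy and 2101 CPM in Sham, a ratio of 14.96 (interval 14.6 to 15.4). As a log2 ratio this was 3.90, against 2.46 with cells thinned to 500 UMIs and 3.42 in the plasma cell-like cluster. For thinned log2 ratios the gate was applied again to the thinned counts, so the cells differ from those at full depth. Ighe stood at 351 CPM (183 UMIs) in Colotomy and 3.43 CPM (14 UMIs) in Sham, a ratio of 102 (interval 59.5 to 191), and 115 of the 183 UMIs came from 1 cell. These are the 2 highest ratios of the 10, and the other 2 higher genes lay closer to 1. Ighg2c stood at 5666 CPM in Colotomy and 3668 CPM in Sham (ratio 1.54, interval 1.48 to 1.61). Pigr, a gene of epithelium, stood at 240 CPM in Colotomy and 115 CPM in Sham (ratio 2.09, interval 1.70 to 2.55), beside colonocyte markers that summed to 1210 CPM in Colotomy and 788 CPM in Sham in the same cells. The gene lower in Colotomy was Ighd, at 46.0 CPM against 164 CPM in Sham (ratio 0.281, interval 0.179 to 0.422).

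The other 5 genes stayed within 1.5-fold in plasma cells. Igha was at 58120 CPM in Colotomy and 58183 CPM in Sham (ratio 0.999), Ighm at 8386 CPM in Colotomy and 8165 CPM in Sham (ratio 1.03), and Jchain at 11145 CPM in Colotomy and 9389 CPM in Sham (ratio 1.19). The signs of these 3 differences depended on the setting. With cells thinned to 500 UMIs the log2 ratios were -0.50 for Igha, -0.43 for Ighm and -0.25 for Jchain, and with immunoglobulin genes left out of the denominator they were 0.12 for Igha, 0.16 for Ighm and 0.37 for Jchain. In the plasma cell-like cluster they were -0.36 for Igha, 0.090 for Ighm and -0.081 for Jchain. Ighg2b was at 10695 CPM in Colotomy and 7240 CPM in Sham (ratio 1.48), and Ighg3 at 1576 CPM in Colotomy and 1406 CPM in Sham (ratio 1.12). Igha was thus level between the libraries in the summed UMIs, although the share of IgA cells was lower in Colotomy.

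The J chain transcript was highest in IgA cells of both libraries. Since the gate uses Jchain, the levels of Jchain in plasma cells are partly set by it. IgA cells held 18699 CPM of Jchain in Colotomy (interval 18106 to 19307) and 13079 CPM in Sham (interval 12930 to 13229). IgM cells held 10703 CPM in Colotomy (interval 9733 to 11744) and 4813 CPM in Sham (interval 4660 to 4971). IgG cells held 5755 CPM in Colotomy (interval 5473 to 6048) and 5468 CPM in Sham (interval 5319 to 5620). IgA cells, whose tail carries the TGC codon printed above, thus stood above IgG cells in both libraries. IgM cells, whose tail carries it too, stood above IgG cells in Colotomy and below them in Sham, where 74 of the 218 IgM cells held fewer than 10 Ighm UMIs.

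Within IgG, the IgG2c cells held most Jchain in both libraries. The IgG2c cells had 7295 CPM in Colotomy (interval 6494 to 8167) and 9097 CPM in Sham (interval 8641 to 9570), against 5626 CPM in Colotomy (interval 5271 to 5998) and 3937 CPM in Sham (interval 3642 to 4249) for IgG1 cells. IgG2b cells had 5182 CPM in Colotomy and 4967 CPM in Sham, IgG3 cells 4510 CPM in Colotomy and 4456 CPM in Sham, and the 4 IgE cells of Colotomy 8800 CPM. Per cell, IgA cells had a median of 18 Jchain UMIs in Colotomy and 27 in Sham, and IgG cells 6 in Colotomy and 13.5 in Sham. Jchain was detected in 219 of 227 IgG cells in Colotomy (96.5%) and in all 266 in Sham.

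**Figure D2:**
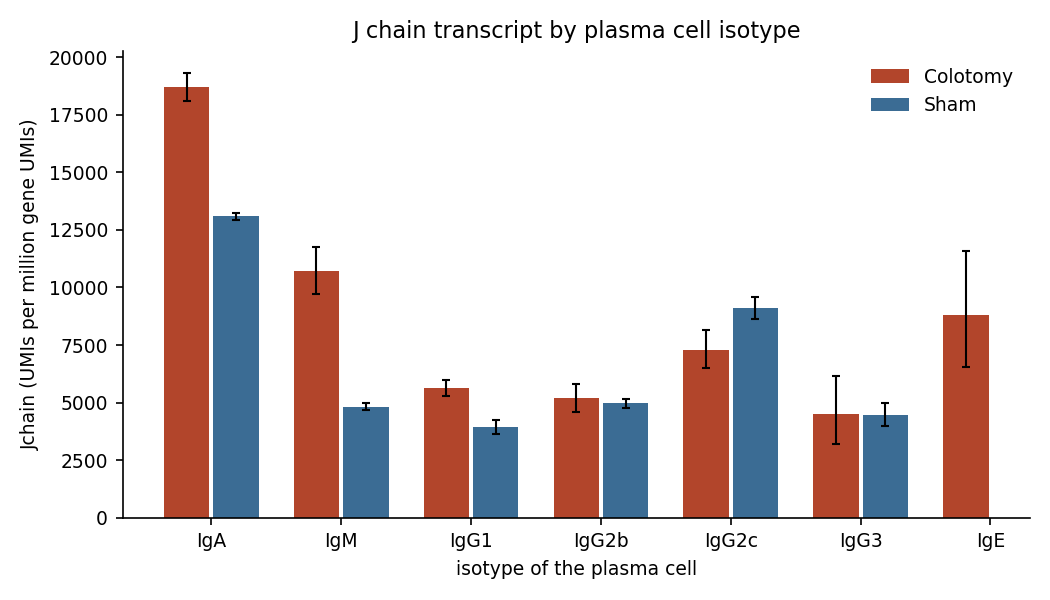
Jchain level in plasma cells of each isotype, in CPM, for Colotomy (red, left of each pair) and Sham (blue, right); lines are exact 95% Poisson intervals, and Sham had no IgE cell. IgA cells hold the highest level in both libraries, at 18699 CPM in Colotomy and 13079 CPM in Sham.

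Many genes of antibody secretion were higher in the gate of Colotomy. Of the 18 genes of plasma cell identity and secretion, 9 were at least 1.5-fold higher in Colotomy and 1 lower. Of all measured genes 20.9% were higher and 23.5% lower. The median log2 ratio of the 18 was 0.60, beside -0.03 over all measured genes. Xbp1, the transcription factor of the secretory programme and a gene of the gate, was at 2631 CPM in Colotomy and 736 CPM in Sham (ratio 3.57). Fkbp11, a folding enzyme, was 2.98-fold, Edem1, which disposes of misfolded glycoprotein, 2.39-fold, and Sdc1, the surface proteoglycan CD138 of plasma cells, 2.06-fold higher in Colotomy. The exception was Tnfrsf17, the survival receptor BCMA, at 38.3 CPM in Colotomy and 76.4 CPM in Sham (ratio 0.502). Within isotypes it stood at 11.1 CPM in IgG cells of Colotomy and 10.7 CPM in those of Sham. In IgA cells it stood at 79.6 CPM in Colotomy (16 UMIs) and 126 CPM in Sham. The part of the lower IgA share of Colotomy in the Tnfrsf17 ratio was not tested. Plasma cell markers together summed to 6166 CPM in the gate of Colotomy and 2972 CPM in that of Sham, the opposite order to the B cell markers given above. These markers include Mzb1, Derl3 and Xbp1, genes of the gate. The gate asks for fixed UMI counts in cells of unequal depth, so the sums and the Xbp1 level are partly set by it.

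Genes of the steps before secretion lay lower in Colotomy. Among 15 genes of class switching and the germinal centre the median log2 ratio was -0.59, with 1 called higher and 8 called lower, beside 20.9% higher and 23.5% lower of all genes and their median of -0.03. Bcl6, the germinal centre regulator, had 1 UMI in plasma cells of Colotomy and 85 in those of Sham. Irf8 was at 69.0 CPM in Colotomy and 232 CPM in Sham. Of 10 proliferation genes, 0 were higher and 5 lower, beside the same 20.9% and 23.5%, and Mki67 was at 228 CPM in Colotomy and 366 CPM in Sham (ratio 0.623). B cell markers were also lower in the gate of Colotomy, as given above, and their part in these values was not tested.

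Receptors for homing and survival signals lay mostly lower in plasma cells of Colotomy, 12 of 18 called lower (23.5% of all genes were) and 2 higher (20.9% of all genes were) around a median log2 ratio of -0.78. The lower ones included the gut homing receptors Ccr9, at 21.1 CPM in Colotomy and 55.1 CPM in Sham, and Itgb7, at 47.9 CPM in Colotomy and 120 CPM in Sham, as well as Ccr10, the receptor for the epithelial chemokine Ccl28, at 26.8 CPM in Colotomy and 49.2 CPM in Sham. Among IgA cells alone, Itgb7 was at 69.7 CPM in Colotomy (interval 38.1 to 117) and 172 CPM in Sham (interval 155 to 190), while the intervals of Ccr9 (20.5 to 85.0 in Colotomy, 78.5 to 104 in Sham) and of Ccr10 (38.1 to 117 in Colotomy, 73.6 to 98.1 in Sham) overlapped. The 2 higher genes were Itgb1, an integrin subunit for extracellular matrix, at 117 CPM in Colotomy and 70.5 CPM in Sham (ratio 1.66), and Il6st, the signalling subunit of the interleukin-6 receptor, at 57.5 CPM in Colotomy and 28.9 CPM in Sham (ratio 1.99). Fibroblast markers were higher in the same cells, and their part in these 2 values was not tested. B cell markers were lower in the gate of Colotomy, as given above, and the 10 T cell markers summed to 49.9 CPM in Colotomy and 193 CPM in Sham. The part of these cells, and of the lower IgA share of Colotomy, in the 12 lower genes was not tested.

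IgA and IgG plasma cells of the same library differed in other genes too. In Colotomy, 162 IgA cells were set against 227 IgG cells, and 14.9% of 5396 genes were at least 1.5-fold higher and 22.6% at least 1.5-fold lower in IgA cells. In Sham, 681 IgA cells were set against 266 IgG cells, and 12.8% of 10838 genes were higher and 18.4% lower. Among genes with at least 20 UMIs and 50 CPM on the higher side in Sham, 32 were higher in IgA cells in both libraries and 111 higher in IgG cells in both. The count on the IgA side was 87 with immunoglobulin genes left out of the denominator, and that on the IgG side was 59 with a clear isotype. The IgA side was led by receptors. Tnfrsf17 stood at 79.6 CPM in IgA cells and 11.1 CPM in IgG cells of Colotomy, and at 126 CPM in IgA cells and 10.7 CPM in IgG cells of Sham.

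Ccr10 stood at 69.7 CPM in IgA cells (14 UMIs) and 0 in IgG cells of Colotomy. With the IgG cells set to 3 UMIs the ratio was 6.29, and the exact interval had a lower limit of 4.47. In Sham, Ccr10 stood at 85.2 CPM in IgA cells and 8.56 CPM in IgG cells. Ccr9, the receptor for the small bowel chemokine Ccl25, stood at 44.8 CPM in IgA cells and 7.39 CPM in IgG cells of Colotomy, and at 90.5 CPM in IgA cells and 11.8 CPM in IgG cells of Sham. The integrin gene Itgb7 stood at 69.7 CPM in IgA cells and 36.9 CPM in IgG cells of Colotomy, and at 172 CPM in IgA cells and 55.6 CPM in IgG cells of Sham. The 4 were named because they stood higher in IgA cells of both libraries, so that agreement is not a separate result. In IgA cells of Colotomy they rest on 9 to 16 UMIs. The interval of the Itgb7 ratio of IgA over IgG in Colotomy, 0.779 to 4.75, includes equal levels. T cell-like and fibroblast-like cells held 0.342 CPM of Ccr10 in Colotomy and 0.389 CPM in Sham, and 5.13 CPM of Ccr9 in Colotomy and 23.7 CPM in Sham. T cell-like cells alone held 67.8 CPM of Ccr9 in Colotomy (5 UMIs in 90 cells, interval 22.0 to 158) and 37.4 CPM in Sham.

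The IgG side was led by Slpi, a secreted inhibitor of neutrophil elastase. Slpi stood at 976 CPM in IgA cells and 14321 CPM in IgG cells of Colotomy, and at 218 CPM in IgA cells and 2653 CPM in IgG cells of Sham, a ratio of IgA over IgG of 0.0681 in Colotomy (interval 0.0587 to 0.0786) and 0.0821 in Sham. Every IgG subclass held more than IgA in each library. In Colotomy the levels were 14541 CPM in IgG1, 17377 CPM in IgG2b, 11561 CPM in IgG2c and 4397 CPM in IgG3 cells. In Sham they were 4271 CPM in IgG1, 2024 CPM in IgG2b, 3858 CPM in IgG2c and 784 CPM in IgG3 cells. A Slpi UMI was found in 21.0% of IgA cells and 87.2% of IgG cells in Colotomy, and in 24.7% of IgA cells and 54.9% of IgG cells in Sham.

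Within each of these isotypes Slpi was also higher in Colotomy than in Sham. In the plasma cell-like cluster alone, IgA cells held 1265 CPM and IgG cells 16236 CPM in Colotomy, and IgA cells 241 CPM and IgG cells 4501 CPM in Sham. Cells that served as background, T cell-like and fibroblast-like, held 178 CPM of Slpi in Colotomy and 14.8 CPM in Sham, below the IgA and IgG cells of the same library. Mesothelial cell-like cells held 1246 CPM in Colotomy and 1595 CPM in Sham.

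**Figure D3:**
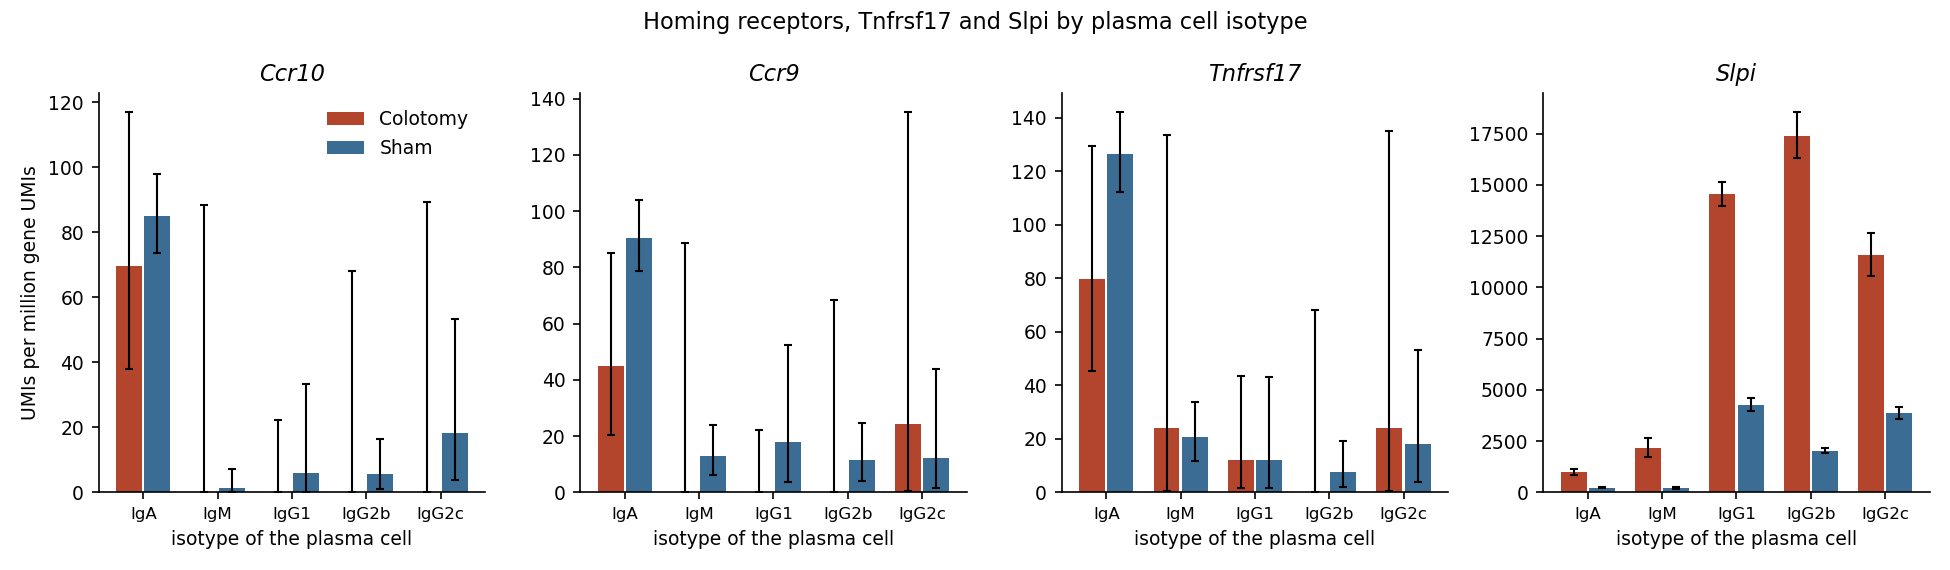
Levels of the receptor genes Ccr10, Ccr9 and Tnfrsf17 and of Slpi in plasma cells of 5 isotypes, in CPM, for Colotomy (red, left of each pair) and Sham (blue, right); lines are exact 95% Poisson intervals and a missing bar is a count of 0. The 3 receptors peak in IgA cells of both libraries, and Slpi is high in the IgG subclasses, at 14541 CPM in IgG1 cells of Colotomy and 4271 CPM in those of Sham.

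Among the other genes named for a higher level in IgG cells of both libraries were Mef2b, Fcgbp, S1pr2, Hmces, Neil1, Apoe and Basp1. In Colotomy the interval of the IgA over IgG ratio included equal levels for S1pr2 (0.0964 to 2.53) and Hmces (0.205 to 1.51). It also did for Neil1 (0.0287 to 1.26) and Basp1 (0.283 to 1.10). Mef2b, a germinal centre transcription factor, stood at 4.98 CPM in IgA cells and 40.6 CPM in IgG cells of Colotomy, and at 17.3 CPM in IgA cells and 145 CPM in IgG cells of Sham. Apoe, the lipid carrier apolipoprotein E, stood at 433 CPM in IgA cells and 757 CPM in IgG cells of Colotomy, and at 274 CPM in IgA cells and 964 CPM in IgG cells of Sham. Of the 15 class switching and germinal centre genes, 0 were higher and 5 of 7 measured were lower in IgA than in IgG cells of Colotomy, and 0 higher and 12 of 15 lower in Sham. Of the 10 proliferation genes, 9 were measured in Colotomy with 0 past 1.5-fold in either direction, and in Sham 1 of 10 was lower in IgA cells. Pycard, an inflammasome adaptor, was higher in IgA cells, with 438 CPM against 199 CPM in IgG cells of Colotomy, and 1013 CPM against 180 CPM in Sham.

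The light chains of IgA cells differed between the libraries. Mouse antibodies carry mostly kappa light chains and a minority of lambda. Lambda led in 34 of 162 IgA cells in Colotomy (21.0%, interval 14.99 to 28.1) and in 23 of 681 in Sham (3.38%, interval 2.15 to 5.02), and the intervals do not overlap. In IgG cells lambda led in 15 of 227 in Colotomy (6.61%, interval 3.75 to 10.7) and in 9 of 266 in Sham (3.38%, interval 1.56 to 6.33), and these overlap. Lambda-led IgA cells held a median of 119 lambda UMIs in Colotomy and 115 in Sham. With a lower limit than the 3 UMIs used below, Ighv3-6 led in 10 of these 34 cells in Colotomy, and 18 showed no heavy variable gene. In Sham, Ighv3-6 led in 1 of the 23, and 17 showed none. The intervals treat cells as independent, and whether the lambda-led cells of Colotomy belong to few clones was not tested. Background cells of T cell-like and fibroblast-like clusters held 252 CPM of lambda transcripts in Colotomy and 619 CPM in Sham.

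Few plasma cells showed their heavy-chain variable gene, and unequally between libraries. At least 3 UMIs of a variable gene were found in 18 of 427 plasma cells in Colotomy and 238 of 1198 in Sham. Among IgA cells, Ighv3-6 led in 4 of 10 such cells in Colotomy, and Ighv1-81 led in 0 of those 10 and in 29 of 155 in Sham (18.7%, interval 12.9 to 25.8). In Sham IgA cells with both chains read, the pair of Ighv1-81 with Igkv1-110 led in 11 of 85 cells (12.9%, interval 6.64 to 22.0). Cells of 1 clone and cells that switched independently cannot be told apart in these counts, nor can cells of different mice.

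B cells were called outside the plasma gate by at least 2 UMIs of a B cell gene set that includes Cd79a, Cd79b and Ms4a1, and 0 of the CD3 genes. The gate held 584 cells in Colotomy (6.32%) and 22132 cells in Sham (52.5%). Of these, 40 of the 584 in Colotomy and 10602 of the 22132 in Sham lay in B cell-like clusters, so isotypes of B cells are given for both sets. In the clusters, IgM led in 45.0% of cells in Colotomy (interval 29.3 to 61.5) and 68.5% in Sham (interval 67.6 to 69.4), and IgG of any subclass in 6 of 40 cells in Colotomy (interval 5.71% to 29.8%) and in 110 of 10602 in Sham (1.04%, interval 0.853 to 1.25). These cells held 582 CPM of Ighg1 in Colotomy (16 UMIs) and 27.9 CPM in Sham, beside 710 CPM in T cell-like and fibroblast-like cells of Colotomy and 24.5 CPM in those of Sham, so no difference in IgG B cells is read from these shares. No isotype led, through a tie or no UMI, in 35.0% in Colotomy and 17.8% in Sham. Over the whole gate, IgM led in 31.5% in Colotomy and 62.1% in Sham, IgA in 14.7% in Colotomy and 8.04% in Sham, and IgG1 in 10.96% in Colotomy and 0.723% in Sham.

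Coexpression of IgM and IgD is the mark of a naive B cell. At least 1 UMI of both Ighm and Ighd was found in 8 of 40 B cells of the clusters in Colotomy (interval 9.05% to 35.6%) and 56.3% in Sham (interval 55.3 to 57.2). These B cells had a median of 624 UMIs in Colotomy and 1059 in Sham, and Ighm was detected in 41.1% of T cell-like cells outside the plasma gate in Colotomy and 72.1% of those in Sham, so an Ighm UMI alone does not mark a B cell that makes IgM. Ighd was detected in 7 of 90 of these T cell-like cells in Colotomy and 2986 of 8054 in Sham. The background of both genes was thus higher in Sham, and no difference in naive B cells is read from these shares. With Ighm or Ighd together in cells thinned to 500 UMIs, the shares of the whole gate were 29.0% in Colotomy and 55.2% in Sham.

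Summed over the B gate, 6 of the 10 genes were at least 1.5-fold higher in Colotomy, beside 27.3% of 16163 genes, and 3 at least 1.5-fold lower, beside 11.6%. The higher ones were Igha at 12155 CPM in Colotomy and 1275 CPM in Sham, Jchain at 1639 CPM in Colotomy and 196 CPM in Sham, Ighg1 at 773 CPM in Colotomy and 49.5 CPM in Sham, Ighg2b at 1393 CPM in Colotomy and 169 CPM in Sham, Pigr at 332 CPM in Colotomy and 210 CPM in Sham, and Ighe with 2 UMIs in Colotomy and 19 in Sham (ratio 6.86, interval 0.775 to 28.4). Ighd was lower, at 143 CPM in Colotomy and 549 CPM in Sham, and so were Ighg2c at 34.3 CPM in Colotomy and 60.1 CPM in Sham and Ighg3 at 19.9 CPM in Colotomy and 35.5 CPM in Sham. Ighm was at 1704 CPM in Colotomy and 2002 CPM in Sham. Of the gate cells of Colotomy, 161 lay in fibroblast-like and 166 in unnamed clusters, and in the gate fibroblast markers summed to 9433 CPM in Colotomy and 2477 CPM in Sham, neutrophil markers to 2523 CPM in Colotomy and 121 CPM in Sham, and B cell markers to 3812 CPM in Colotomy and 4873 CPM in Sham. The part of these other cells in the sums was not tested.

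Antibody RNA was counted in every named class outside the plasma gate. In 12 classes with at least 50 such cells in each library, B cell-like cells among them and the plasma cell-like class left aside, Ighg1 was higher in Colotomy in 12 of 12, with 162 to 3141 CPM in Colotomy and 11.5 to 28.2 CPM in Sham. Ighm was lower in Colotomy in 11 of 12, with 79.7 to 2231 CPM in Colotomy and 287 to 2858 CPM in Sham, the exception being mesothelial cell-like cells, where 179 of the 210 Ighm UMIs of Colotomy lay in 1 barcode. Ighd was lower in 12 of 12. Igha was higher in 9 of 12, with a median over classes of 1252 CPM in Colotomy and 725 CPM in Sham.

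Single barcodes shaped some of these sums. Ighg1 in smooth muscle cell-like cells of Colotomy came to 218 UMIs, of which 183 lay in 1 barcode, and Igha in vascular endothelial cell-like cells came to 1038 UMIs, of which 694 lay in 1. The median cell with an Igha or Ighg1 UMI held 1 in all 12 classes of both libraries. In fibroblast-like cells 26.9% held an Igha UMI in Colotomy and 49.7% in Sham, at 2221 CPM in Colotomy and 718 CPM in Sham, so the share and the level run opposite ways and no order is read from the share.

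**Figure D4:**
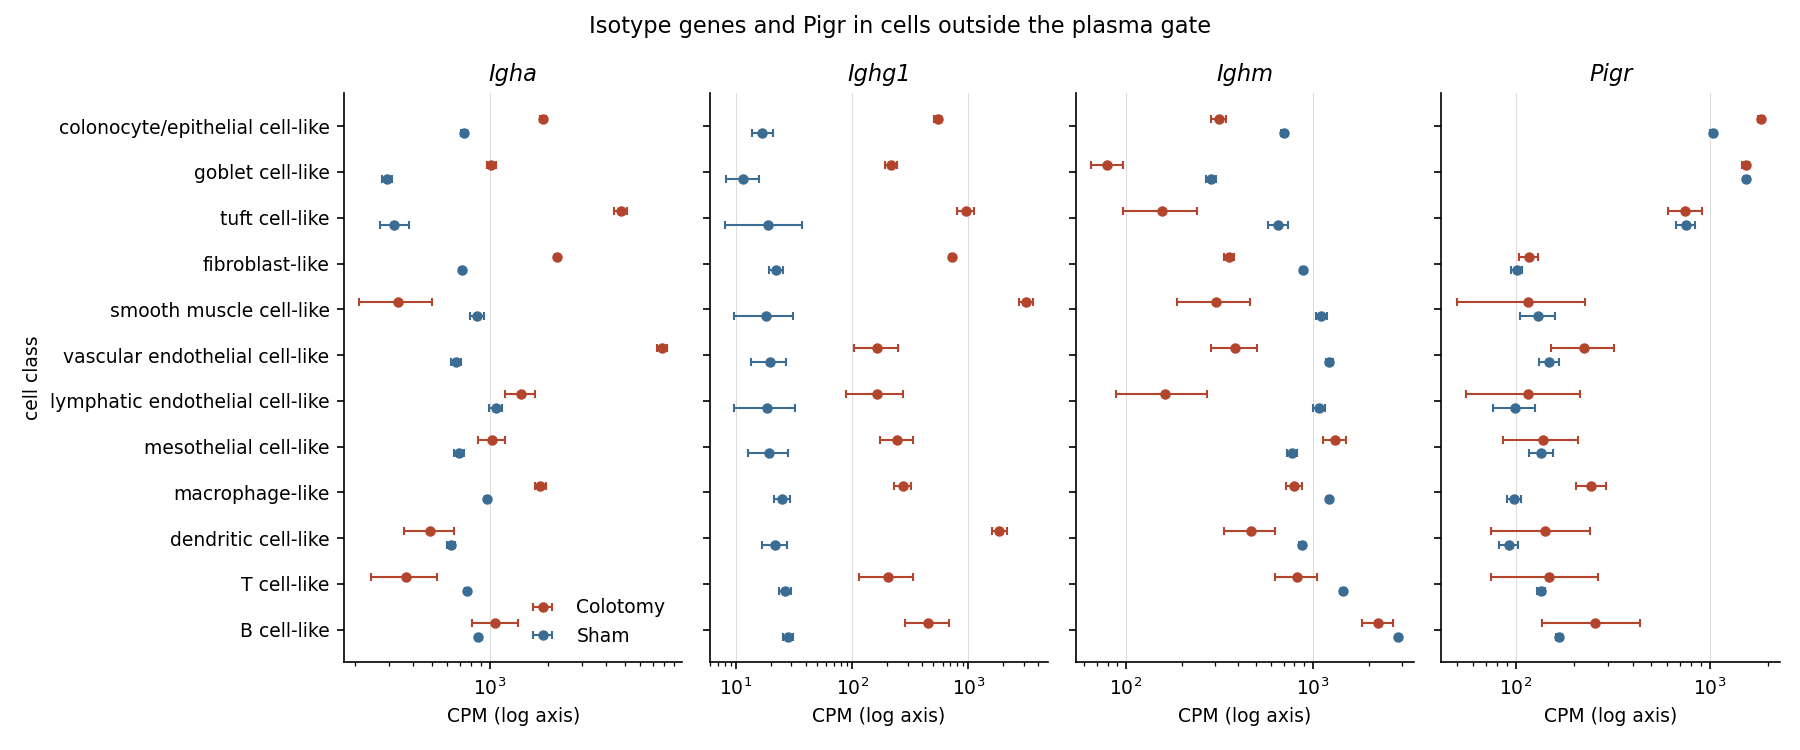
Levels of Igha, Ighg1, Ighm and Pigr in cells outside the plasma gate by cell class, in CPM on log axes, with Colotomy (red) above Sham (blue) in each row; lines are exact 95% Poisson intervals. Ighg1 lies higher in Colotomy in all 12 classes, Ighm lies lower in 11 of 12, and Pigr stands out in the 3 epithelial classes of both libraries.

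A large part of the antibody transcripts of Colotomy lay outside kept barcodes. Of all Igha UMIs of the library, 48.3% were in kept barcodes in Colotomy and 98.5% in Sham, and 25.4% were in the plasma gate in Colotomy and 73.7% in Sham. For Ighg1, 62.3% were in kept barcodes and 38.6% in the plasma gate in Colotomy, and 99.4% and 77.4% in Sham. Over all barcodes, before any filter, Ighg1 was at 3533 CPM in Colotomy and 150 CPM in Sham (ratio 23.6), Igha at 9951 CPM in Colotomy and 4358 CPM in Sham (ratio 2.28), Jchain at 1567 CPM in Colotomy and 696 CPM in Sham (ratio 2.25) and Pigr at 633 CPM in Colotomy and 279 CPM in Sham (ratio 2.27). Ighm was at 1134 CPM in Colotomy and 1898 CPM in Sham (ratio 0.597), and Ighd at 58.5 CPM in Colotomy and 402 CPM in Sham (ratio 0.146). In these sums over a whole library, more cells of a type and more RNA per cell cannot be told apart. The order of the libraries for Ighg1, Ighd and Pigr was the same before the filter and in plasma cells, whereas Igha was level in plasma cells and Ighm was lower in Colotomy before the filter.

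Pigr was a gene of epithelium in both libraries. Epithelial cells were called outside the plasma gate by at least 2 UMIs of Epcam, Cdh1, Cldn3, Cldn7 and Vil1 together and 0 of Ptprc, which gave 1701 cells in Colotomy (18.4%, median 1129 UMIs) and 1628 cells in Sham (3.86%, median 2273 UMIs). Colonocyte markers, all 10 detected, summed to 11048 CPM in Colotomy and 11314 CPM in Sham. B cell markers summed to 174 CPM in these cells of Colotomy and 833 CPM in those of Sham, and erythroid markers, 1 of 7 at 0 in Colotomy, to 787 CPM in Colotomy and 3213 CPM in Sham. Of the epithelial gate cells, 35 of 1701 in Colotomy and 503 of 1628 in Sham also passed the gate for B cells. Pigr stood at 1647 CPM in Colotomy (interval 1595 to 1701) and 1341 CPM in Sham (interval 1308 to 1374), a ratio of 1.23 (interval 1.18 to 1.28) or a log2 ratio of 0.30. Without the cells that also passed the B gate the log2 ratio was 0.19, and the part of the erythroid transcripts was not tested. T cell-like cells outside the plasma gate held 149 CPM in Colotomy and 135 CPM in Sham.

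Cells with a Pigr UMI were 75.1% of epithelial cells in Colotomy and 67.2% in Sham, beside 8.05% of T cell-like and fibroblast-like cells in Colotomy (median depth 710 UMIs) and 15.7% in Sham (1328 UMIs). With each cell thinned to 500 UMIs the shares were 51.6% in Colotomy (interval 49.2 to 53.96) and 36.4% in Sham (interval 34.0 to 38.8), and those of the background were 5.88% in Colotomy and 6.41% in Sham. Single cells spanned 242 to 2448 CPM between the quartiles in Colotomy, around a median of 1328 CPM, and 0 to 1732 CPM in Sham, around a median of 797 CPM. The share was thus higher in Colotomy also with Pigr counted at equal depth. The cells themselves were gated at full depth, which was unequal, and the part of that in these shares was not tested. The part that the unequal overlap with the B gate has in these shares was not tested.

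The Pigr difference was not spread evenly over the epithelium. In the cluster led by Clca4a, Aqp8 and Ly6m, genes of surface colonocytes, Pigr stood at 1543 CPM in Colotomy (217 gate cells, interval 1390 to 1708) and 727 CPM in Sham (600 gate cells, interval 680 to 776), a ratio of 2.12 (interval 1.88 to 2.40). In the cluster led by Dmbt1, Gsdmc3 and Cftr it stood at 2063 CPM in Colotomy (624 cells) and 1860 CPM in Sham (345 cells), a ratio of 1.11 (interval 1.04 to 1.19). Goblet cell-like cells, which make mucus, held 1538 CPM in Colotomy (634 cells) and 1658 CPM in Sham (423 cells), a ratio of 0.928 (interval 0.873 to 0.986). Tuft cell-like cells held 1007 CPM in Colotomy (67 cells) and 1044 CPM in Sham (51 cells), a ratio of 0.964 (interval 0.705 to 1.31). Of these 4 clusters the one led by Clca4a, Aqp8 and Ly6m is therefore past 1.5-fold, and it was 12.8% of epithelial cells in Colotomy and 36.9% in Sham, so the clusters entered the ratio over the gate with unequal weights in the 2 libraries.

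**Figure D5:**
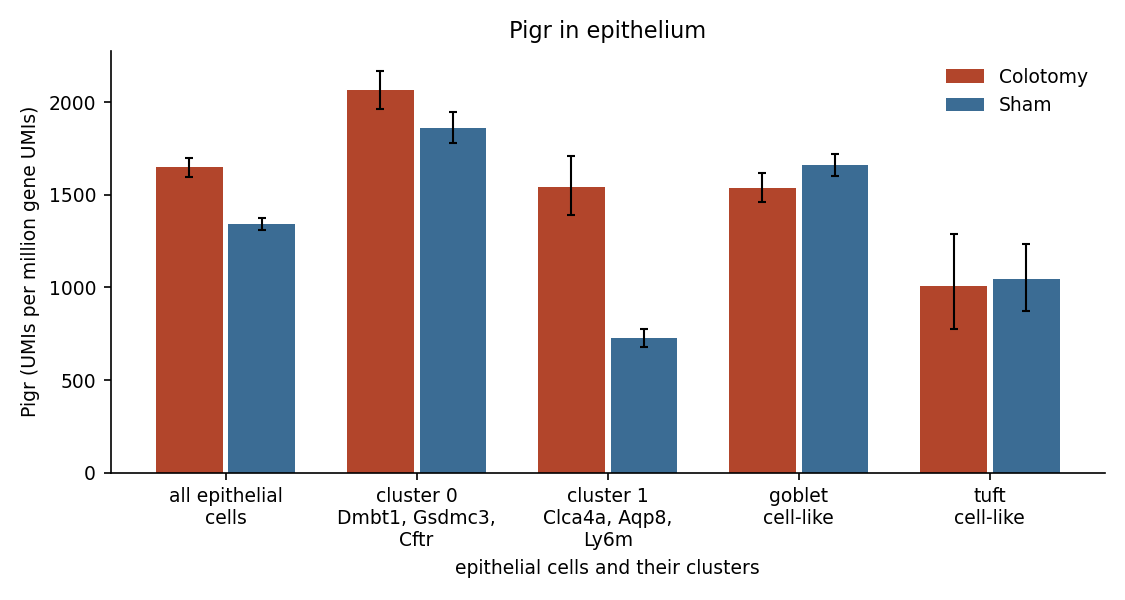
Pigr level in all cells of the epithelial gate and in 4 of its clusters, in CPM, for Colotomy (red, left of each pair) and Sham (blue, right); lines are exact 95% Poisson intervals. The cluster led by Clca4a, Aqp8 and Ly6m shows the widest gap, 1543 CPM in Colotomy against 727 CPM in Sham.

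Transcripts of isotype genes were also counted in epithelial cells, which do not make them. Of the 9 genes measured there, 5 were at least 1.5-fold higher in Colotomy, beside 14.5% of 13383 genes, and 2 at least 1.5-fold lower, beside 13.8%. Pigr and Ighg3 stayed within 1.5-fold, though Pigr passed it with cells thinned to 500 UMIs (log2 ratio 0.68) and without goblet cell-like cells (log2 ratio 0.61). The 5 higher ones were Ighg1 at 410 CPM in Colotomy and 16.5 CPM in Sham, Ighg2c at 51.8 CPM in Colotomy and 20.5 CPM in Sham, Ighg2b at 116 CPM in Colotomy and 46.9 CPM in Sham, Jchain at 194 CPM in Colotomy and 105 CPM in Sham, and Igha at 1195 CPM in Colotomy and 774 CPM in Sham. The lower ones were Ighm at 208 CPM in Colotomy and 373 CPM in Sham and Ighd at 26.8 CPM in Colotomy and 108 CPM in Sham. Plasma cell markers, 1 of 10 at 0 in Colotomy, summed to 591 CPM in these cells of Colotomy and 424 CPM in those of Sham.

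Genes that act on Pigr or on its transport lay on both sides. Of the 21 receptors, transcription factors and transport genes listed, 20 were measured in epithelial cells. Of these, 2 were at least 1.5-fold higher in Colotomy, beside 14.5% of all genes, and 1 lower, beside 13.8%. Neither count exceeds its share of all genes, so no shift of the list is read from them. The median log2 ratio of the 20 was -0.12, beside 0.07 over all genes. The higher ones included Ifngr2, a subunit of the interferon-gamma receptor, at 90.8 CPM in Colotomy and 59.98 CPM in Sham. Il17ra, a receptor for interleukin-17, which induces Pigr in mouse gut, was lower at 12.7 CPM in Colotomy and 25.8 CPM in Sham. B cell markers were higher in the epithelial gate of Sham, and their part in the Il17ra level was not tested. Rab11a and Rab3d, vesicle proteins of apical transport, were within 1.5-fold at ratios of 1.22 and 1.21.

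Genes of epithelial defence differed more widely. Of 16 listed, 15 were measured in epithelial cells, 7 called higher and 3 lower in Colotomy, around a median log2 ratio of 0.37, beside 14.5% higher and 13.8% lower of all genes and their median of 0.07. The antibacterial lectins Reg3b and Reg3g stood at 682 CPM and 251 CPM in Colotomy and at 65.3 CPM and 25.3 CPM in Sham, and the siderophore binder Lcn2 at 37.7 CPM in Colotomy and 2.75 CPM in Sham. The mucin gene Muc2 stood at 8555 CPM in Colotomy and 11821 CPM in Sham, within 1.5-fold. Neutrophil markers summed to 586 CPM in the same cells of Colotomy and 31.7 CPM in those of Sham, 1 of 8 at 0 in Sham, and their part in the level of Lcn2, a gene that neutrophils also express, was not tested.

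Receptors for antibody were sorted by cell class. Fcgr1 and Fcgr4, activating receptors for IgG, were highest in macrophage-like cells among the named classes of both libraries, at 104 CPM and 127 CPM in Colotomy and at 32.1 CPM and 31.5 CPM in Sham. Fcgr3, another of them, stood in these cells at 168 CPM in Colotomy and 119 CPM in Sham. The inhibitory receptor Fcgr2b stood in the same class at 361 CPM in Colotomy and 163 CPM in Sham. Fcer2a, the low-affinity IgE receptor, was highest in B cell-like cells, at 395 CPM in Colotomy and 707 CPM in Sham, and so was Fcmr, the IgM receptor, at 257 CPM in Colotomy and 502 CPM in Sham. Both genes are among the markers that named the B cell-like clusters, so their place in that class is partly set by the naming. Among the ligands, Ccl28, which draws Ccr10-bearing cells, was highest in colonocyte-like cells at 31.3 CPM in Colotomy and 25.6 CPM in Sham. Madcam1, the vessel ligand of the integrin that holds Itgb7, was highest in vascular endothelial cell-like cells at 162 CPM in Colotomy and 28.5 CPM in Sham.

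Likeness of pattern was measured as Pearson's r of log2(CPM + 1) over 27 points, each a cell class in 1 library, among 14965 genes outside the immunoglobulin genes. The points share libraries, depth and free RNA. Pigr was most like Klf5 (r = 0.96), Gpx2 (0.96), Lgals4 (0.96), Aldh1b1 (0.94) and Cldn7 (0.93), the last a gene of the epithelial gate. Igha was most like Ccr10 (r = 0.83), Derl3 (0.79), 5830418P13Rik (0.78), Tnfrsf17 (0.77) and Mtdh (0.76). Jchain was most like Edem1 (r = 0.87) and Ccr10 (0.86), followed by Hsp90b1, Clec2g and Mtdh, and Ighm was most like Pou2af1 (r = 0.89), followed by Mzb1, Irf4, Myl4 and A530032D15Rik. Tnfrsf17, Derl3 and Mzb1 are among the markers that named the plasma cell-like cluster, and Derl3 and Mzb1 are genes of the plasma gate. Ccr10 and Tnfrsf17 were also named above for a higher level in IgA than in IgG cells. Both results come from the same counts, so that overlap is not a separate result.

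The hashtags did not tell bowel from fat. In the deposited feature reference, hashtag 1 stands for bowel and hashtag 2 for mesenteric adipose tissue, yet 223 epithelial cells of Colotomy were called for hashtag 2 and 184 for hashtag 1, and 335 of Sham for hashtag 2 and 83 for hashtag 1. Calling the larger hashtag at 3 times the other gave 1521 epithelial cells for hashtag 1 and 5 for hashtag 2 in Colotomy, and 7 for hashtag 1 and 312 for hashtag 2 in Sham, so the callings disagreed. Calls were made in 143 of 427 plasma cells in Colotomy and 275 of 1198 in Sham. IgA led in 40.4% of hashtag 1 and 45.3% of hashtag 2 plasma cells in Colotomy, and in 55.4% of hashtag 1 and 61.8% of hashtag 2 cells in Sham. IgG1 led in 34.0% of hashtag 1 and 35.8% of hashtag 2 cells in Colotomy, and in 4.62% of hashtag 1 and 0.763% of hashtag 2 cells in Sham. Under each hashtag of the first calling the order of the libraries was that of the whole gate, and tissue cannot be read from these values.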

How the data were processed

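Single-cell libraries of mouse bowel and mesenteric adipose tissue (Colotomy and Sham, 1 each) were analysed from the deposited matrices, which hold UMI counts per gene and barcode and were made with Cell Ranger 6.0.0 per the file headers. The submitters' processing notes name the build mm10, STAR 2.5.1b, Seurat and Space Ranger without roles. Counts were used as deposited. From them shares of cells with exact Clopper-Pearson intervals, CPM of summed cells with exact Poisson intervals and ratios with exact conditional binomial intervals were computed (scipy 1.17.1, numpy 2.4.6, pandas 2.3.3). A ratio past 1.5-fold, among genes with at least 10 UMIs over both libraries, is called higher or lower, and a count of 0 was set to 3 for a bound. Clusters were made with scanpy 1.11.5 and igraph 0.11.9 (2000 variable genes, 30 principal components, 15 neighbours, resolution 1, both libraries together, 393 immunoglobulin and J chain genes and Pigr left out), and 22 of 26 clusters were named from 24 marker lists. Hashtags were called with a Gaussian mixture (scikit-learn 1.9.0). Scrublet called no doublet in either library and so did not work, and barcodes in the top 10% of its scores were removed as an alternative.

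Named were the 10 genes, genes of 8 lists, the 5 genes most like Igha, Ighm, Jchain and Pigr, and the 8 genes at each end of the IgA over IgG ratio in Sham with the same direction in Colotomy. The genes, lists and markers were chosen with earlier results of these data known. Scripts were tested on simulated data. Alternatives covered filters, gates, thinning, free RNA, denominators, doublets and shared barcodes. In the thinned alternative the gates were applied again to the thinned counts, whereas the thinned shares of cells with a Pigr UMI use cells gated at full depth. Colotomy held 12002711 UMIs and Sham 74006762, so intervals in Colotomy are wider. Gene positions and tails are from GENCODE on GRCm38. Some genes of the lists are not reported here by name.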

Additional observations from a re-analysis of the deposited data

Results flagged for a closer look

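The log2 ratio of Pigr, Colotomy over Sham, differed between clusters of the epithelial gate. It was 1.09 in the cluster led by Clca4a, Aqp8 and Ly6m, 0.15 in the cluster led by Dmbt1, Gsdmc3 and Cftr, and -0.11 in goblet cell-like cells. The difference between clusters was not tested, since each library is 1 sample.

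The log2 ratio of Ighg2c, Colotomy over Sham, was 0.63 in plasma cells and 1.34 in epithelial cells, but -0.81 in B cells. This difference in direction was not tested either.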

How the results depend on the processing

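Of 176 values recomputed under alternatives, 116 stayed within the limit set for them and 60 moved past it. The limit was the counting interval for shares and log2 ratios and 1.5-fold for counts of genes. A change of sign was looked for only in log2 ratios past 1.5-fold, Ighg1 in plasma cells and Pigr in the surface cluster, and 0 were found. Igha, Ighm and Jchain in plasma cells lay within 1.5-fold and did change sign under some alternatives. IgA and IgM shares of plasma cells stayed lower and the IgG1 share higher in Colotomy in 10 of 10 alternatives each, and the IgM or IgD share of B cells stayed lower in 10 of 10. Causes were not tested. The removal of shared barcodes, of the top 10% of doublet scores, of epithelial cells in the B gate and of the goblet cell-like cluster, and the restriction to plasma cell-like, B cell-like or single epithelial clusters, were chosen after seeing the data.

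The IgA share of plasma cells was 32.2% in Colotomy with at least 1000 UMIs. In Sham it was 64.0% with a clear isotype, 61.9% with a gate free of the 10 genes, 62.2% after thinning to 500 UMIs and 68.1% in the plasma cell-like cluster. The IgM share in Sham was 15.1%, 15.3%, 12.0% and 10.8% under those settings and 13.7% with free RNA subtracted. The IgM or IgD share of B cells in Colotomy was 57.0% with a clear isotype, 46.1% with free RNA subtracted, 29.0% thinned, 43.2% with a gate of 4 UMIs and 47.5% in B cell-like clusters. In Sham it was 95.96% with a clear isotype, 71.3% with at least 1000 UMIs, 69.8% with a mitochondrial limit of 10%, 55.2% thinned, 74.3% with a gate of 4 UMIs and 75.6% in B cell-like clusters. The IgA share of hashtag 2 plasma cells in Sham was 77.8% thinned, and calling the larger hashtag at 3 times the other gave no value for hashtag 2 in Colotomy.

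Pigr in epithelium had a log2 ratio of 0.12 with a mitochondrial limit of 10%, 0.68 thinned, 0.21 with a gate of 4 UMIs, 0.46 in epithelial clusters and 0.61 without goblet cell-like cells, 0.19 without cells that passed the B gate, and 1.56 in the surface cluster thinned. Ighg1 in plasma cells had 3.62 with at least 1000 UMIs, 3.96 with a mitochondrial limit of 10%, 3.82 without double hashtags, 2.46 thinned, 4.03 with a denominator free of immunoglobulin, 3.63 as a mean over cells, 3.42 in the plasma cell-like cluster, 3.84 without top doublet scores and 3.85 without shared barcodes. Igha, at a ratio of 0.999, had log2 ratios of -0.038 with free RNA subtracted, -0.58 with at least 1000 UMIs, -0.033 without double hashtags, -0.50 thinned, 0.12 with a denominator free of immunoglobulin, -0.21 as a mean over cells, -0.36 in the cluster and 0.019 without shared barcodes. Ighm had 0.20, -0.21, -0.43, 0.16, -0.070 and 0.090 with free RNA subtracted, at least 1000 UMIs, thinning, that denominator, the mean over cells and the cluster. Jchain had -0.16 with at least 1000 UMIs, 0.18 without double hashtags, -0.25 thinned, 0.37 with that denominator, 0.12 as a mean over cells and -0.081 in the cluster. Genes higher in IgA than in IgG cells of both libraries numbered 87 with that denominator, against 32, and genes lower numbered 59 with a clear isotype, against 111.

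Depth and cell number were lower in Colotomy, which held 162 IgA cells and 40 B cells in B cell-like clusters, against 681 and 10602 in Sham. No paired analysis was possible because each group has 1 library.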
